A study of Mus musculus with 2 samples.

Results

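Genes of the VEGF and angiopoietin systems were compared between PDGFRa-positive stromal cells of Sox9 PreASKO and of Sox9 floxed mice. The set held 10 genes, chosen by symbol: the ligand genes Vegfa, Vegfb, Vegfc and Angpt1 and the receptor genes Kdr, Flt1, Flt4, Nrp1, Tek and Tie1. All 10 had a row among the 23647 genes of the deposited table. RNA came from cells carrying the surface protein PDGFRa, taken from the stromal vascular fraction, which is what remains of fat tissue once adipocytes have been removed after collagenase digestion. The depot was inguinal white fat of male mice aged 3 weeks. There was 1 library of Sox9 PreASKO cells and 1 library of Sox9 floxed cells, and according to the series text each came from 3 pooled mice. Both genotypes had received doxycycline on postnatal day 1. The labels name neither the promoter that drives the deletion nor what PreASKO stands for. Mice within a pool could not be told apart.

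VEGF proteins are secreted factors that act mainly on vessels. VEGFA signals through the kinase receptors VEGFR1 (gene Flt1) and VEGFR2 (gene Kdr), VEGFB binds VEGFR1, and VEGFC acts on lymphatic vessels through VEGFR3 (gene Flt4). Neuropilin-1 (gene Nrp1) is a co-receptor for VEGFs and for semaphorins. Angiopoietin-1 (gene Angpt1) is made by cells around vessels and activates the kinase receptor TIE2 (gene Tek), whose relative TIE1 has no established angiopoietin ligand of its own. In fat tissue, stromal cells and adipocytes supply such ligands, and endothelial cells carry most of the kinase receptors.

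The PreASKO library held 37597048 counts and the floxed library 61761645. Sox9, the targeted gene, stood at 17.0 CPM (counts per 1000000 of the library's counts) in PreASKO and 28.6 CPM in floxed cells, a ratio of 0.595 (95% interval 0.542 to 0.651). A count over the whole gene cannot show whether the floxed exons were lost. Meis1, which the series title sets beside Sox9, stood at 19.5 CPM in PreASKO and 30.4 CPM in floxed cells. Pdgfra, the gene of the sorting marker, stood at 603 CPM in PreASKO and 716 CPM in floxed cells. The library labelled PreASKO went against its labelled sex: Xist, an RNA made from the inactive X chromosome of females, stood at 745 CPM in PreASKO and 3.24 CPM in floxed cells, while Y-linked genes were detected in both. Their ratios were 0.973 for Ddx3y, 0.730 for Uty, 0.625 for Eif2s3y and 0.538 for Kdm5d. All comparisons therefore set the library labelled PreASKO against the library labelled floxed. The 2 pools may differ in sex as well as genotype, and with these libraries the 2 cannot be told apart. Figf and Apln, described below, lie on the X chromosome. No difference has a replicate check, no p-value can be given, and intervals cover counting error only.

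The 4 ligand genes differed little between the libraries, whereas 4 of the 6 receptor genes, Kdr, Flt1, Flt4 and Tie1, had ratios above 2 of PreASKO over floxed. This count set no minimum level, and with none 3710 of all 23647 genes had a ratio of at least 2. Those 4 receptors were scarce in both libraries, and the interval of Flt4 included 1. The other 2 receptors, Nrp1 and Tek, were abundant, with ratios of 0.903 and 0.959, and for Nrp1 the fold in the authors' deposited table, 1.47, lies on the other side of 1. Summed over the 4 ligands, the level was 260.8 CPM in PreASKO and 249.98 CPM in floxed cells, a ratio of 1.04 (1.02 to 1.07). Over the 6 receptors it was 386 CPM in PreASKO and 409.8 CPM in floxed cells, a ratio of 0.942 (0.923 to 0.962), and nearly all of these counts belonged to Nrp1 and Tek. In bulk RNA, more cells of a type and more RNA per cell cannot be told apart.

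Genes averaging 1 CPM or more over both libraries are called tested genes here, although no statistical test was possible. Among them, 554 of 13684 (4.05%) had a ratio of at least 2 and 447 (3.27%) a ratio of at most 0.5. A ratio above 1 was found for 45.5% of them. The fold of 2 is the size the series text names. Of the 10 genes of the set, 7 reached that mean level, and Flt1, Flt4 and Tie1 did not. Of these 7, 1 gene, Kdr, was past 2-fold higher and none was past 2-fold lower. The median log2 ratio was 0.13 over the 4 ligands and -0.06 over the 3 receptors that reached the mean level, against -0.04 over all 13684 genes. Over all 6 receptors, with no minimum level, the median log2 ratio was 1.39, because the scarce receptors were the ones with high ratios. Over all genes it was -0.03 at that setting. With the fold in the authors' deposited table, the median over the same 3 receptors was 0.55, through Nrp1.

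**Figure D1:**
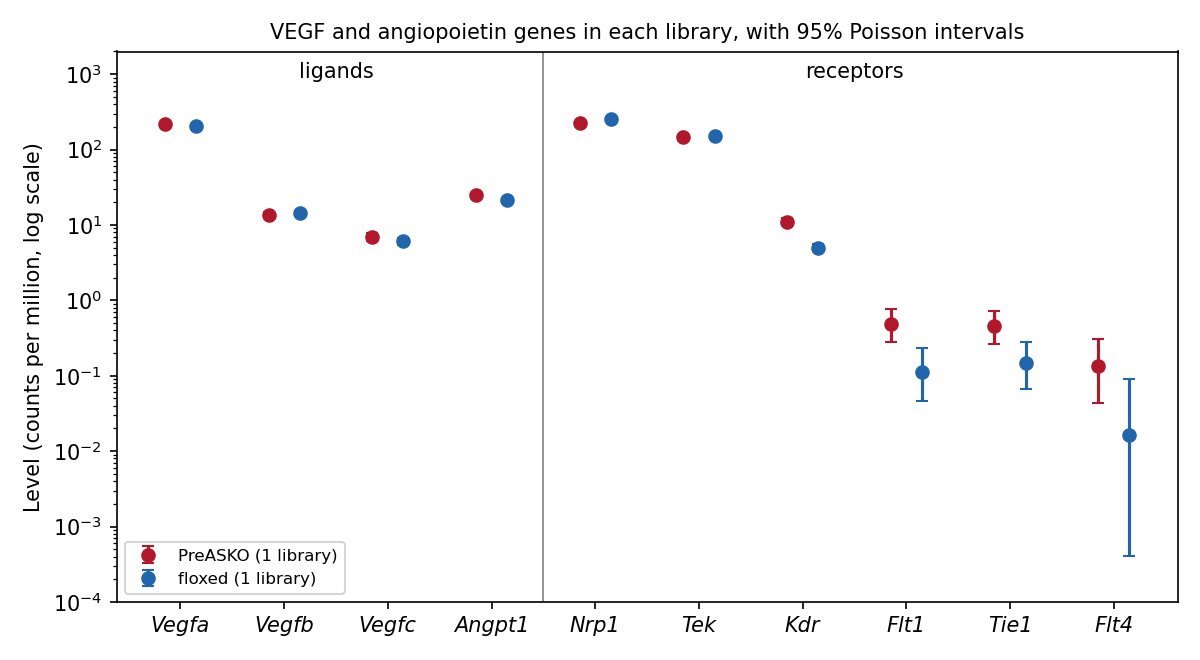
Level of each gene in CPM on a log axis, with PreASKO (red) left of floxed (blue), 1 library each, and exact 95% Poisson intervals as bars. Ligands and the receptors Nrp1 and Tek lie close together between libraries, while Kdr stands at 11.1 CPM in PreASKO against 5.003 CPM in floxed cells, and Flt1, Tie1 and Flt4 lie below 1 CPM in both.

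Vegfa, the main growth factor for blood vessel sprouting, had the highest level of the 4 ligands, also per kilobase of exon. Its gene lies on chromosome 17 (46016993 to 46032377, mm10; Entrez ID 22339). The level of Vegfa was 215 CPM in PreASKO (8091 counts) and 208 CPM in floxed cells (12844 counts), a ratio of 1.03 (1.01 to 1.06). The Poisson intervals of the 2 levels overlapped, at 210.5 to 219.9 CPM in PreASKO and 204 to 212 CPM in floxed cells. All counts of Vegfa and Vegfb were repeat-distributed, and their raw count was 0 in both libraries. Of all tested genes, 41.0% had a ratio at least as high as that of Vegfa. Vegfb, a VEGFR1 ligand linked to fatty acid handling (ID 22340; chromosome 19, 6982472 to 6987651), stood at 13.5 CPM in PreASKO and 14.4 CPM in floxed cells, a ratio of 0.937 (0.839 to 1.05). Vegfc, the main growth factor of lymphatic vessels (ID 22341; chromosome 8, 54077532 to 54186454), stood at 6.97 CPM in PreASKO and 6.04 CPM in floxed cells, a ratio of 1.15 (0.981 to 1.36). For both of these ligands the interval of the ratio included 1, so no difference was detectable at this depth. A protein-coding gene, Gm33153, overlaps Vegfc by 6212 bases and stood at 0.426 CPM in PreASKO and 0.210 CPM in floxed cells. Whether counting used strand is not stated, so reads of Vegfc and Gm33153 may be mixed.

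Angpt1 had the highest ratio of the 4 ligands, although a small one. It (ID 11600; chromosome 15, 42424667 to 42676977) stood at 25.1 CPM in PreASKO (942 counts) and 21.5 CPM in floxed cells (1330 counts), a ratio of 1.16 (1.07 to 1.27). The Poisson intervals of the 2 levels did not overlap, but 27.1% of all tested genes had a ratio at least as high, so a shift of this size was common between these libraries. Gm41313, a long noncoding RNA gene that overlaps Angpt1, stood at 0.0532 CPM in PreASKO and 0.178 CPM in floxed cells, and reads may be mixed here too. Over both libraries, the genes nearest to Angpt1 in log2 CPM were Gm9840, Twf2 and Mtpap, and 64 genes lay within a distance of 0.1. For Vegfa they were Arhgap29, Luc7l2 and Ccnl2, with 22 genes within 0.1. With 2 libraries such likeness says little.

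Relative to Pdgfra, which was itself lower in PreASKO cells, each ligand had a ratio above 1. There were 0.357 Vegfa counts per Pdgfra count in PreASKO and 0.290 in floxed cells, a ratio of 1.23 (1.19 to 1.27). The same ratio was 1.38 (1.27 to 1.51) for Angpt1, 1.37 (1.16 to 1.61) for Vegfc and 1.11 (0.995 to 1.24) for Vegfb. Of these 4 intervals, only that of Vegfb included 1.

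**Figure D2:**
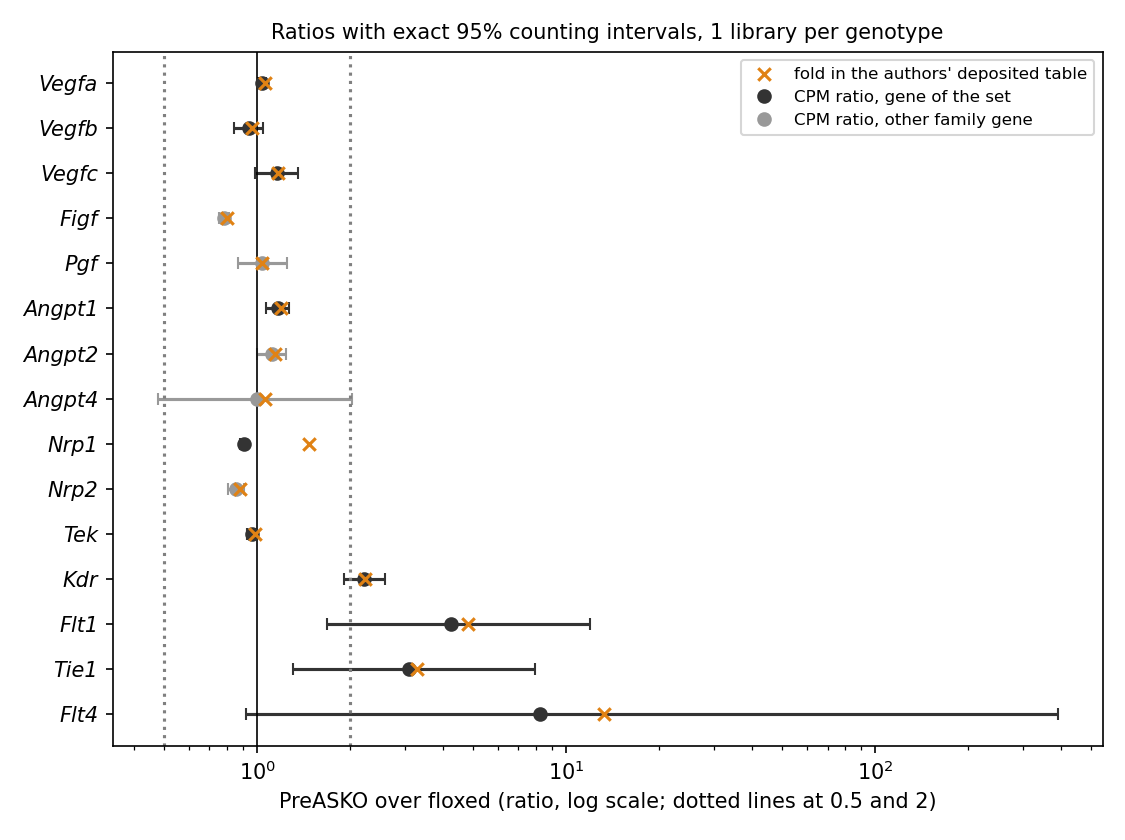
Ratio of PreASKO over floxed on a log axis, with exact 95% binomial intervals, for the 10 genes (dark points) and 5 further family genes (grey points), and the fold in the authors' deposited table as crosses. The intervals of Kdr, Flt1 and Tie1 begin at 1.91, 1.68 and 1.31, and Nrp1 is the gene of the set whose deposited fold (1.47) lies on the other side of 1 from its CPM ratio (0.903).

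Among the 4 scarce receptors, Kdr had the most counts and the narrowest interval, and it was higher in PreASKO cells. Kdr (ID 16542; chromosome 5, 75932827 to 75979072), which encodes the receptor through which VEGFA drives endothelial growth, stood at 11.1 CPM in PreASKO (418 counts) and 5.003 CPM in floxed cells (309 counts). The ratio was 2.22 (1.91 to 2.58), an interval that includes 2. With 5 CPM added to both levels the ratio of Kdr was 1.61, below 2-fold. A long noncoding RNA gene, Gm32727, overlaps Kdr by 1741 bases and has no level here. Whether counting used strand is not stated, so reads of these genes may be mixed. Of all tested genes, 2.89% had a ratio at least as high. The genes nearest to Kdr over both libraries were Oscp1, Inpp5d and Smagp, with 6 genes within a log2 distance of 0.1.

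Flt1, Tie1 and Flt4 rested on few counts. Flt1 (ID 14254; chromosome 5, 147561604 to 147726438), whose protein binds VEGFA tightly and in a soluble form acts as a decoy, had 18 counts (0.479 CPM) in PreASKO and 7 counts (0.113 CPM) in floxed cells, a ratio of 4.22 (1.68 to 11.97). Tie1 (ID 21846; chromosome 4, 118471191 to 118489849) had 17 counts (0.452 CPM) in PreASKO and 9 counts (0.146 CPM) in floxed cells, a ratio of 3.10 (1.31 to 7.90). Flt4 (ID 14257; chromosome 11, 49609679 to 49652739) had 5 counts in PreASKO and 1 count in floxed cells, and its ratio of 8.21 had an interval of 0.919 to 388. The Poisson intervals of the levels did not overlap for Flt1, and they overlapped for Tie1 and Flt4. An uncharacterized long noncoding RNA gene, Gm35383, overlaps Flt1 and stood at 0.319 CPM in PreASKO and 0 counts in floxed cells; whether counting used strand is not stated, so reads of these genes may be mixed and the value of Flt1 is uncertain.

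Nrp1 and Tek stood far above the other receptors, also per kilobase of exon. Nrp1 (ID 18186; chromosome 8, 128358591 to 128505476) stood at 227 CPM in PreASKO (8517 counts) and 251 CPM in floxed cells (15497 counts), a ratio of 0.903 (0.879 to 0.927). The levels of Nrp1 did not overlap in their Poisson intervals, and 39.8% of all tested genes had a ratio at most as high. Tek (ID 21687; chromosome 4, 94739086 to 94874976) stood at 147 CPM in PreASKO (5539 counts) and 154 CPM in floxed cells (9484 counts), a ratio of 0.959 (0.928 to 0.992), and its Poisson intervals overlapped. Relative to Pdgfra both were slightly higher in PreASKO cells, with ratios of 1.14 (1.10 to 1.18) for Tek and, from the summed counts, 1.07 (1.04 to 1.11) for Nrp1.

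The value of Nrp1 depends on which column of the deposited table is read. The authors' deposited table gives a fold of 1.47 for Nrp1, PreASKO over floxed, against the ratio of 0.903 from the summed counts. Over 11983 genes with at least 100 counts in each library, the fold in the authors' deposited table divided by the CPM ratio lay within 5% of its median, 1.02, for 97.9% of genes. For Nrp1 this quotient was 1.62, and 50 genes, Nrp1 included, had one at least as high. For Vegfa, Vegfb, Vegfc, Angpt1, Kdr and Tek the quotient lay between 1.001 and 1.026. The raw count alone, which held 0.892% of the Nrp1 counts in PreASKO and 0.394% in floxed cells, gave 76 counts in PreASKO and 61 in floxed cells and a ratio of 1.84. The lncRNA gene Gm32643, which overlaps Nrp1, stood at 1.65 CPM in PreASKO and 2.25 CPM in floxed cells. The direction for Nrp1 is therefore uncertain, and the cause was not tested.

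Levels of different genes were compared per kilobase of exon, using the union of all annotated exons. Vegfa led in both libraries, with 50.2 CPM per kb in PreASKO and 48.5 in floxed cells, followed by Tek (31.3 in PreASKO and 32.6 in floxed cells) and Nrp1 (23.2 in PreASKO and 25.6 in floxed cells). Vegfb, Angpt1, Vegfc and Kdr came next in that order in both libraries, with Kdr at 1.23 CPM per kb in PreASKO and 0.554 in floxed cells. Down to Kdr and on to Tie1, no neighbours in the order had overlapping intervals. At the low end, Tie1, Flt1 and Flt4 each overlapped their neighbour in both libraries, so their order is not resolved. Among tested genes, the level per kb of Vegfa was above that of 92.5% in PreASKO and 92.2% in floxed cells, and that of Kdr above 16.9% in PreASKO and 7.02% in floxed cells. With the longest transcript as the length, an alternative added after the values were seen, Nrp1 moved up to 62.1 CPM per kb in PreASKO and 68.8 in floxed cells, level with Vegfa (62.4) in PreASKO and above it (60.3) in floxed cells, so the places of Nrp1, Tek and Vegfa depend on the transcript that is present.

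**Figure D3:**
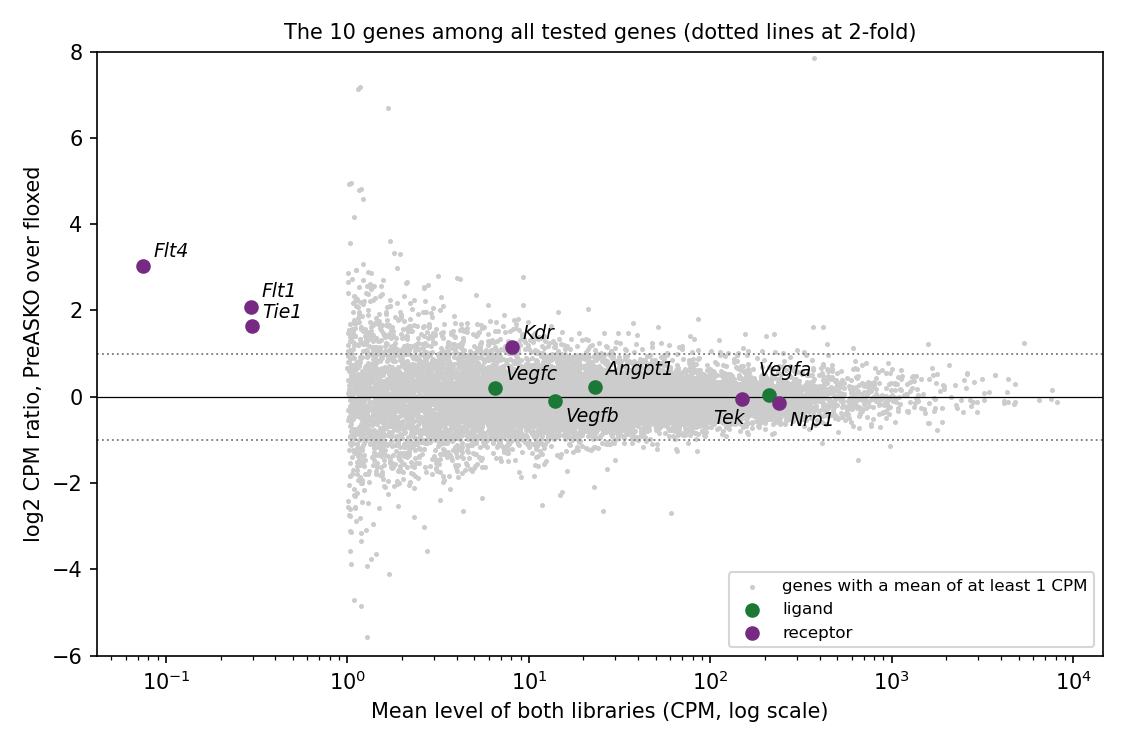
Log2 ratio of PreASKO over floxed against mean level on a log axis, for the tested genes, averaging 1 CPM or more (grey), the 4 ligands (green) and the 6 receptors (purple). Kdr lies just above the dotted 2-fold line at a log2 ratio of 1.15, the ligands, Tek and Nrp1 lie near 0, and Flt1, Tie1 and Flt4 lie left of the minimum level.

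The stretches upstream of the annotated starts are shown for Kdr and Flt1, with ratios of 2.22 and 4.22, and for Tek and Vegfa, with ratios of 0.959 and 1.03, so that both kinds can be read side by side. These 4 genes were picked with their values known. Each is the run of 140 bases from 150 to 11 bases before the RefSeq start (GRCm38.p6, the assembly behind mm10), on the gene's own strand, and none overlaps a GENCODE M21 exon of its gene. The spans of Kdr, Flt1 and Tek given with their values reach upstream of these starts. Promoters of 9 of the 10 genes matched the RefSeq table. Capitals mark GGAA or its reverse complement TTCC, the core letters recognized by ETS factors such as the endothelial factor ERG, and the letters TATAAA.
Kdr (chr5:75978466-75978605, minus strand): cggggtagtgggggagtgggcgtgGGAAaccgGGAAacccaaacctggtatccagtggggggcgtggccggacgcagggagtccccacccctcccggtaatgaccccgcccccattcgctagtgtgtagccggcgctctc
Flt1 (chr5:147726022-147726161, minus strand): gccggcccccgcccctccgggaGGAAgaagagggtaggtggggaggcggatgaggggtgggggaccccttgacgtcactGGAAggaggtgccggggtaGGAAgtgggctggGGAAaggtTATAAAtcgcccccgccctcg
Tek (chr4:94739139-94739278, plus strand): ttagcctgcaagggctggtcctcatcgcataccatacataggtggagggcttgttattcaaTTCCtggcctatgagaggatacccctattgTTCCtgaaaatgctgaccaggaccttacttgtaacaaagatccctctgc
Vegfa (chr17:46032388-46032527, minus strand): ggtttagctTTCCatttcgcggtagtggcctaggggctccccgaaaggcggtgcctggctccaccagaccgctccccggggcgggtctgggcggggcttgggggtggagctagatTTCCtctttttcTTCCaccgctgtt

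GGAA, on either strand, occurred 4 times in the Flt1 stretch, 2 times in that of Kdr, 2 times in that of Tek and 3 times in that of Vegfa. Of 32851 annotated promoter stretches of the same length, 78.5% held it at least once and 8.71% held it at least 4 times, and Flt1 alone of the 4 reached that number. TATAAA was found in Flt1, beginning 31 bases before the start, and not in the other 3, and 7.24% of all stretches held it on either strand. The GC box GGGCGG or its reverse complement, read by SP1-type factors, occurred in Kdr, Flt1 and Vegfa and not in Tek, against 26.9% of all stretches. ACGTG or its reverse complement, part of the site bound by hypoxia-inducible factors, was in none of the 4 windows, against 10.5% of all stretches. These are matches of letters and were not tested as binding sites.

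None of the 5 remaining genes of the family was past 2-fold in either direction. Of all tested genes, 4.05% had a ratio of at least 2 and 3.27% one of at most 0.5, so none among so few genes says little. Figf, the gene of VEGFD, a ligand of VEGFR3 and, in human, of VEGFR2, stood at 131 CPM in PreASKO and 168 CPM in floxed cells, a ratio of 0.780 (0.754 to 0.807). Per kilobase, Figf stood at 54.4 CPM in PreASKO and 69.7 CPM in floxed cells, above Vegfa in both libraries. Nrp2, a neuropilin of lymphatic and venous vessels, stood at 44.2 CPM in PreASKO and 51.9 CPM in floxed cells, a ratio of 0.852 (0.803 to 0.904). Angpt2, the context-dependent antagonist of TIE2, stood at 14.4 CPM in PreASKO and 12.9 CPM in floxed cells, and Pgf, which binds VEGFR1, at 5.24 CPM in PreASKO and 5.05 CPM in floxed cells. The intervals of both ratios, 1.11 (0.995 to 1.24) for Angpt2 and 1.04 (0.863 to 1.24) for Pgf, included 1. Angpt4, another TIE2 ligand, had 14 counts in PreASKO and 23 in floxed cells, the same level of 0.372 CPM in both. The number of Figf counts per Vegfc count was lower in PreASKO (18.8) than in floxed cells (27.8), a ratio of 0.676 (0.574 to 0.798).

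Set against Kdr, Vegfa was lower in PreASKO cells, because Kdr was higher there. There were 19.4 Vegfa counts for each Kdr count in PreASKO and 41.6 in floxed cells, a ratio of 0.466 (0.400 to 0.542). Angpt1 had a ratio of 1.16 and Tek one of 0.959. The number of Angpt1 counts per Tek count was 0.170 in PreASKO and 0.140 in floxed cells, a ratio of 1.21 (1.11 to 1.33). Angpt2 counts per Angpt1 count were 0.574 in PreASKO and 0.601 in floxed cells, a ratio of 0.956 (0.831 to 1.10), an interval that includes 1.

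Markers of endothelial cells, which carry Kdr, Flt1, Flt4 and Tie1, were mostly higher in the PreASKO library as well. Of 16 markers, all with a row and none at 0, 10 reached a mean of 1 CPM. Of these 10, 8 had a ratio above 1, against 45.5% of all tested genes, and 4 a ratio of at least 2, against 4.05%. Among these 4, Esam, Erg and Vwf stood below 1 CPM in floxed cells and reached the mean only through PreASKO. So did Egfl7, another of the 8, at 1.44 CPM in PreASKO and 0.826 CPM in floxed cells. The minimum level thus favours high ratios among scarce markers, in the count above 1 as well as in the count of at least 2. Esam, a junction protein gene, stood at 2.13 CPM in PreASKO and 0.324 CPM in floxed cells, Erg at 1.91 CPM in PreASKO and 0.421 CPM in floxed cells, Vwf at 1.68 CPM in PreASKO and 0.696 CPM in floxed cells, and Cdh5, the gene of VE-cadherin, at 7.42 CPM in PreASKO and 3.63 CPM in floxed cells. The median log2 ratio of the 10 was 0.88, against -0.04 over all genes, and it was 0.26 with 5 CPM added to every level. At a mean of at least 5 CPM, 4 markers remained, with a median log2 ratio of 0.21. Summed over all 16 markers the level was 108 CPM in PreASKO and 94.8 CPM in floxed cells, since Eng, at 65.0 CPM in PreASKO and 67.8 CPM in floxed cells, took most of it. The sum gave a ratio of 1.14 (1.09 to 1.18). Of the 10, Eng (0.959) and Ptprb (0.993) had a ratio below 1, and of the other 6 markers Emcn (0.591, interval 0.243 to 1.31) and Cldn5 (0.714, interval 0.400 to 1.23) did.

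The receptors were also set against Pecam1 and Cdh5, a pair of endothelial surface genes that stood at 11.6 CPM in PreASKO and 5.76 CPM in floxed cells when summed. This pair was chosen after the values were seen, from a list in which other markers go the other way, so how close Kdr comes to it depends on that choice and supports nothing. Per count of Pecam1 plus Cdh5, Kdr had 0.961 counts in PreASKO and 0.868 in floxed cells, and Tek had 12.7 counts in PreASKO and 26.6 in floxed cells. Per kilobase, Tek stood at 31.3 CPM in PreASKO and 32.6 CPM in floxed cells, Cdh5 at 1.77 CPM in PreASKO and 0.863 CPM in floxed cells, and Kdr at 1.23 CPM in PreASKO and 0.554 CPM in floxed cells. Which cells made Tek and Nrp1 was not tested.

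**Figure D4:**
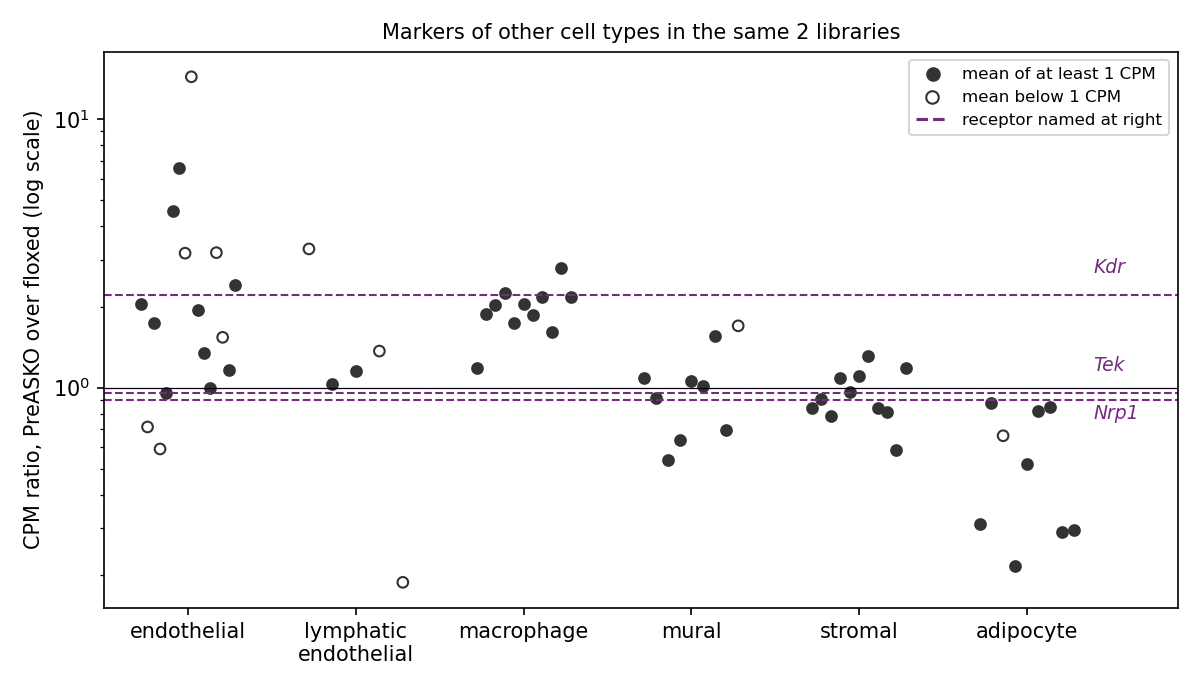
Ratio of PreASKO over floxed on a log axis for each marker gene of 6 cell types, with filled points for a mean of at least 1 CPM, open points below it, and dashed lines at the ratios of Kdr (2.22), Tek (0.959) and Nrp1 (0.903). Macrophage markers lie above 1 and adipocyte markers with a mean of at least 1 CPM lie below 1; Lep and Mmrn1, at 0 counts in the floxed library, are not drawn.

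Other cell types differed in the same libraries. Of 11 macrophage markers with a row, all 11 had a ratio above 1 and 6 a ratio of at least 2. Of all tested genes, 45.5% had a ratio above 1 and 4.05% one of at least 2. The macrophage markers had a median log2 ratio of 1.02 and a summed level of 2550.3 CPM in PreASKO and 1311 CPM in floxed cells. Ms4a7 stood at 38.4 CPM in PreASKO and 13.7 CPM in floxed cells, Cd163 at 96.4 CPM in PreASKO and 42.7 CPM in floxed cells, Lyz2 at 843 CPM in PreASKO and 387 CPM in floxed cells, and Ptprc at 21.8 CPM in PreASKO and 10.04 CPM in floxed cells. Macrophages can express Nrp1, Vegfa and, in subsets, Tek and Flt1, and the part of these markers in the levels of those genes was not tested. Of 8 adipocyte markers with a mean of at least 1 CPM, all 8 had a ratio below 1, with a median log2 ratio of -1.32 and a summed level over the 10 markers of 89.6 CPM in PreASKO and 166 CPM in floxed cells. Gpd1 stood at 5.45 CPM in PreASKO and 25.1 CPM in floxed cells and Adipoq at 12.8 CPM in PreASKO and 41.2 CPM in floxed cells. Lep, below the minimum level, went the other way, with 13 counts in PreASKO and 0 in floxed cells. Among the adipocyte genes the ratio was 0.217 for Gpd1, 0.289 for Retn, 0.295 for Slc2a4 and 0.311 for Adipoq. Adipocytes also make Vegfa and Vegfb, and the part of these markers in their levels was not tested.

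Mural and stromal markers went both ways. With no minimum level, 5 of 6 lymphatic markers had a ratio above 1, though only 2 of the 6 were tested genes. For all tested genes the share above 1 was 45.5%, a share that does not cover genes below the minimum level. Of 8 tested mural cell markers, 4 had a ratio above 1 and 4 below, with Cspg4 at 0.539 (0.446 to 0.649), Des at 0.641 and Notch3 at 0.698 against Myh11 at 1.56 (1.32 to 1.85), and a summed level of 336 CPM in PreASKO and 332 CPM in floxed cells. Of 6 lymphatic endothelial markers, 2 reached a mean of 1 CPM, Lyve1 with a ratio of 1.03 and Pdpn with 1.16, and both are also made by other cells. The defining lymphatic gene Prox1 stood at 1.06 CPM in PreASKO and 0.777 CPM in floxed cells, a ratio of 1.37 (0.877 to 2.13). Ccl21a had 10 counts in PreASKO and 5 in floxed cells, a ratio of 3.29 (1.02 to 12.3), Mmrn1 had 7 counts in PreASKO and 0 in floxed cells, and Reln had 7 counts in PreASKO and 61 in floxed cells, a ratio of 0.189 (0.0727 to 0.412). The summed level of the 6 was 302 CPM in PreASKO and 287 CPM in floxed cells, nearly all of it Lyve1 and Pdpn. Of 11 stromal markers, 4 had a ratio above 1 and 7 below, with Pi16 at 0.587, Col6a1 at 0.784 and Pdgfrb at 0.809 against Ly6a at 1.31, and a median log2 ratio of -0.14. Their summed level was 26026 CPM in PreASKO and 27384 CPM in floxed cells.

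Among genes that process VEGF and angiopoietin ligands or work beside the receptors, Adamts3 had the lowest ratio. It encodes the protease that, with CCBE1, cleaves VEGFC into its active form, and it stood at 2.39 CPM in PreASKO (90 counts) and 7.55 CPM in floxed cells (466 counts), a ratio of 0.317 (0.250 to 0.398). The cofactor gene Ccbe1, named beyond the rule after its value was seen, stood at 11.3 CPM in PreASKO and 12.5 CPM in floxed cells, a ratio of 0.901 (0.798 to 1.02). Furin, a proprotein convertase that also cleaves VEGFC, stood at 46.9 CPM in PreASKO and 60.9 CPM in floxed cells, a ratio of 0.771 (0.728 to 0.816). Thbs1, whose protein restrains VEGF signalling, stood at 168 CPM in PreASKO and 238 CPM in floxed cells, and Cd93, an endothelial and myeloid surface receptor, at 4.20 CPM in PreASKO and 2.88 CPM in floxed cells. Of 13 tested genes in this list, 2 had a ratio above 1, against 45.5% of all tested genes, and 11 a ratio below 1. Among these 11, 1 was at most 0.5, as were 3.27% of all tested genes. The median log2 ratio was -0.15.

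Genes of oxygen sensing, through which hypoxia induces Vegfa, were mixed. Epas1, the gene of HIF-2-alpha, stood at 137 CPM in PreASKO (5146 counts) and 65.2 CPM in floxed cells (4029 counts), a ratio of 2.10 (2.01 to 2.19), and it is also an abundant endothelial gene. Hif3a (1.17, interval 0.958 to 1.42), Egln2 (1.13) and Arnt (0.886) were the tested genes with the next largest differences, and of 8 tested genes 4 had a ratio above 1 and 4 below, with a median log2 ratio of 0.04. The tested hypoxia target genes were split evenly, with 6 of 12 above 1 and 6 below, and a median log2 ratio of -0.02. Of all tested genes 45.5% had a ratio above 1. Over all 15 hypoxia targets, with no minimum level, 9 were above 1 and 6 below, with a median log2 ratio of 0.15. Adm, the vasodilator adrenomedullin, stood at 517 CPM in PreASKO and 317 CPM in floxed cells and Bnip3 at 6.28 CPM in PreASKO and 4.23 CPM in floxed cells. The glucose transporter gene Slc2a1 stood at 36.8 CPM in PreASKO and 63.2 CPM in floxed cells, and Ndrg1 at 13.03 CPM in PreASKO and 19.996 CPM in floxed cells.

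Other angiogenic ligands of stromal cells went both ways, with 6 of 10 tested genes above 1, 4 below, none past 2-fold and a median log2 ratio of 0.06. As 4.05% of all tested genes had a ratio of at least 2 and 3.27% one of at most 0.5, none among 10 says little. Besides Adm (1.63), Angptl4, a lipase inhibitor, was higher at 385 CPM in PreASKO and 253 CPM in floxed cells. Cxcl12, a chemokine, stood at 252 CPM in PreASKO and 404 CPM in floxed cells, a ratio of 0.624 (0.609 to 0.639), and Apln, the peptide apelin, at 8.30 CPM in PreASKO and 14.2 CPM in floxed cells, a ratio of 0.584 (0.512 to 0.666). Genes that respond to VEGF in endothelial cells were split as well. Of 10 such genes 6 were tested, 3 with a ratio above 1 and 3 below, with a median log2 ratio of -0.09. This split is near that of all tested genes, of which 45.5% had a ratio above 1. Hlx stood at 2.15 CPM in PreASKO and 3.53 CPM in floxed cells, Nr4a1 at 87.9 CPM in PreASKO and 111 CPM in floxed cells, and Plvap, a gene of fenestrated endothelium, at 12.05 CPM in PreASKO and 8.95 CPM in floxed cells. Stromal cells also express several of these genes, and their source was not tested.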

How the data were processed

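Per the file headers, the deposited table holds for each gene a whole-number raw count and a second value named repeat-distributed, handled here as an expected count since some values are fractional. It also holds the authors' deposited fold, a ratio with PreASKO on top and no stated normalization. mm10 is the only build named in the submitters' processing notes. No aligner, counter, annotation or use of strand is given in the sources used here.

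Both counts were added and divided by the library total to give CPM. Rows sharing a gene ID were summed (21 IDs) and 24 date-like names were resolved by ID, leaving 23647 genes. The PreASKO library held 37597048 counts and the floxed library 61761645, so 1 count is 0.0266 CPM in PreASKO and 0.0162 CPM in floxed cells. Intervals are exact at 95%: Poisson for levels, Clopper-Pearson for ratios with estimated counts rounded, and conditional for ratios between genes. They cover counting error only. With 1 library per genotype no test was made. Genes averaging 1 CPM or more, called tested, were set against a ratio of 2, without a pseudocount. Lengths came from GENCODE M21 and coordinates and promoters from RefSeq GRCm38.p6. edgeR 4.0.16 gave TMM sizes, and Python 3.11.15 with scipy 1.17.1 the rest. The procedure was checked on simulated data that held counting error only. That check cannot show how calls or intervals behave under differences between mice or cell sorts.

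The members, the 14 lists and the 11 alternatives were chosen with earlier results of these data known. Named by rule are all members, the 5 family genes, up to 4 tested genes of each list with the largest size of log2 ratio, the label checks Sox9, Meis1, Pdgfra, Pdgfrb and Xist, and the 3 genes nearest in level to Angpt1, Kdr and Vegfa. Genes beyond this rule, chosen after their values were seen, are Pecam1, Egfl7, Eng, Ptprb, Emcn, Cldn5, Ccbe1, Prox1, Ccl21a, Mmrn1, Reln, Lep, Car9, Icam2 and Esm1. The Y-linked genes and the overlapping Gm35383, Gm32643, Gm33153 and Gm41313 are beyond it too. Gm32727, which overlaps Kdr and has no value here, is also beyond the rule.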

Additional observations from a re-analysis of the deposited data

How the results depend on the processing

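With 1 library per genotype no replicate could be left out. No paired analysis was possible because the groups share only 1 replicate number, given in accession order. Of the 11 alternatives, a pseudocount of 5 CPM left 0 of the 10 genes past 2-fold higher in place of 1, and removing the minimum level raised it to 4, by admitting Flt1, Flt4 and Tie1. The number past the lower cutoff was 0 in all 11 alternatives, with a cutoff of 2-fold except in the 1.5-fold alternative. The ligand median log2 ratio of 0.13 was -0.059 with the raw count alone, which leaves 1 ligand, Vegfc. The receptor median of -0.06 turned to 0.88 with the raw count alone, to 0.55 under the fold from the authors' deposited table, both being the value of Nrp1, and to 1.39 with no minimum level, through the scarce receptors. The endothelial marker median of 0.88 was 0.36 with the raw count alone, which left 4 genes, 0.26 with a pseudocount of 5 CPM and 0.21 at a mean of at least 5 CPM, which also left 4. Nrp1 reversed to 1.84 with the raw count alone and to 1.47 under the fold from the authors' deposited table; the cause was not tested. Kdr stayed above 1 in its 8 alternatives, between 1.61 and 2.80, and the ratios of Vegfa, Angpt1, Flt1, Flt4 and Tie1 above 1 and those of Vegfb and Tek below 1 in all alternatives that gave a value. TMM shifted all log2 ratios by 0.036 and median-of-ratios scaling by 0.035. Over all genes, 289 were past 2-fold higher and 208 lower with a pseudocount of 1, and 58 and 28 with one of 5, 822 and 2016 with the raw count alone, 3710 and 4809 with no minimum level, 210 and 136 at a mean of at least 5 CPM, and 1378 and 1456 at 1.5-fold, against 554 and 447. The floor of 3 counts used for a count of 0 is 0.0798 CPM in PreASKO and 0.0486 CPM in floxed cells.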

Other observations

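Some genes below the minimum level had large ratios, and were chosen after their values were seen. Car9, a carbonic anhydrase gene induced by hypoxia, had 52 counts in PreASKO and 10 in floxed cells, a ratio of 8.54 (4.29 to 18.9). Icam2, an adhesion gene of endothelial and blood cells, had 35 counts in PreASKO and 4 in floxed cells, a ratio of 14.4 (5.14 to 55.7). Esm1, a gene of sprouting endothelial tip cells, had 3 counts in PreASKO and 19 in floxed cells, a ratio of 0.259 (0.0492 to 0.881), the opposite direction to Kdr.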
